A study of Mus musculus with 9 samples.

Results

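The genes described here belong to the programme that dendritic cells switch on as they mature and become motile. They were chosen by name, as the genes Fscn1, Marcksl1, Cacnb3, Traf1, Socs2, Samsn1, Il4i1 and Tmem123, and read from transcript clusters (the probe sets of this array) that the platform annotation gives to 1 of these symbols only. Of the 8 genes, 6 were found in this way among 22180 genes in all. Cacnb3 matched no named cluster, and Il4i1 was named only on a cluster shared with other genes, so neither was analysed here. Socs2 had 2 clusters, of which the one with the higher mean over all arrays was used, and each of the other 5 genes had 1.

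A dendritic cell that meets microbial products or inflammatory cytokines stops taking up antigen, displays what it has taken up together with co-stimulatory proteins, and moves towards T cells along a gradient sensed by the chemokine receptor CCR7. Movement needs a rebuilt actin skeleton, to which fascin (Fscn1) and the MARCKS-like protein (Marcksl1) contribute. Signals from TNF family receptors and cytokine receptors drive the change, and adaptors and feedback inhibitors such as TRAF1 and SOCS2 are induced along with it. In the Peyer's patch, phagocytes that express lysozyme lie beneath the epithelium over the lymphoid follicles, where they meet material carried in by M cells.

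Expression was measured on 9 arrays of sorted mouse Peyer's patch cells, 3 for each of 3 populations: macrophages (LysoMac) and dendritic cells sorted as carrying or lacking the complement receptor C5aR (C5aR+ LysoDC and C5aR- LysoDC). All cells came from digested patches and were enriched for CD11c before sorting, so that LysoMac are CD11c-enriched cells too. Mouse strain, age and treatment, the sort gates and the number of animals behind an array were stated in no source used here, and p-values measure only the spread between these arrays, which may be technical. Populations follow the sample titles, since the source field of C5aR- LysoDC arrays 2 and 3 names a different receptor from their titles and descriptions. Values are log2 expression values, the array medians lay between 3.39 and 3.65, and the 6 genes were above every array median in the mean of each population.

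The arrays were uneven, and the cell type markers followed the labels in part. LysoMac array 3 correlated more closely with the other populations (mean r = 0.968) than with its own (mean r = 0.954), LysoMac array 2 had the lowest mean r of all 9 arrays with its own population (0.948) and with the others (0.933), and variances within a population averaged 0.179 (LysoMac), 0.0958 (C5aR+ LysoDC) and 0.0854 (C5aR- LysoDC). Of 15 measured markers of conventional dendritic cells, 9 were higher in C5aR- LysoDC than in LysoMac and 1 was higher in C5aR+ LysoDC than in LysoMac. Over all clusters 1.13% and 0.0503% were higher in these comparisons. All 15 had means above the lowest array median in both LysoDC populations, and 4 were below it in LysoMac. Of 18 macrophage markers, 8 were lower in C5aR- LysoDC than in LysoMac and 0 passed in limma's test between C5aR+ LysoDC and LysoMac, where 7 had an unadjusted p under 0.05. The shares of all clusters were 0.405% lower in the first comparison and 6.19% at an unadjusted p under 0.05 in the second. The summed linear signal of the macrophage markers was 7736 to 14053 per LysoMac array, 8480 to 11744 per C5aR+ LysoDC array and 5074 to 6793 per C5aR- LysoDC array. Between the LysoDC populations, 3 dendritic cell markers were higher and 1 macrophage marker (Ms4a7) lower in C5aR- LysoDC, and 3 of 15 epithelial and M cell markers (Gp2, Pglyrp1 and Cdh1) were higher. Of all clusters 0.0947% were higher and 0.00592% lower there. Markers of other cells were higher in C5aR- LysoDC than in LysoMac for 1 of 7 plasma cell genes (Jchain), 1 of 9 innate lymphoid and NK cell genes (Il7r), 1 of 10 plasmacytoid dendritic cell genes (Atp1b1), 2 of 12 neutrophil genes (Trem1 and Mmp9), 2 of 12 stromal and endothelial genes (Kdr and Lum) and 4 of 15 epithelial and M cell genes (Gp2, Pglyrp1, Epcam and Cdh1). The summed signal of the epithelial and M cell list was 610 to 1457 per LysoMac array, 776 to 1368 per C5aR+ LysoDC array and 1217 to 1486 per C5aR- LysoDC array. The part of these cells in the results was not tested.

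Among the members, Traf1 alone passed the test in any comparison, and it did so between C5aR- LysoDC and LysoMac. Traf1 encodes an adaptor bound to TNF family receptors that is itself induced by NF-kappaB and prolongs survival signals. Its level was 6.79, 6.61 and 7.29 on the LysoMac arrays, 7.22, 7.48 and 7.11 on those of C5aR+ LysoDC and 8.08, 8.25 and 7.99 on those of C5aR- LysoDC. Every C5aR- LysoDC array lay above all 6 other arrays, while LysoMac array 3 lay among the C5aR+ LysoDC arrays. The level in C5aR- LysoDC exceeded that in LysoMac by 1.21 ± 0.20 on the log2 scale (SE, n = 3 per population), or 2.32-fold, with a 95% interval of the log2 difference from 0.77 to 1.65 (limma with Benjamini-Hochberg adjustment over all clusters, adjusted p = 0.0211). From C5aR+ to C5aR- LysoDC the difference was 0.84 ± 0.20, with no overlap between arrays and a 95% interval from 0.39 to 1.28, but did not pass over all clusters (limma, adjusted p = 0.263). C5aR+ LysoDC and LysoMac differed by 0.38 ± 0.20, with overlapping arrays (limma, adjusted p = 0.803). The moderated F test over the 3 populations gave limma's adjusted p = 0.0558, which missed the threshold of 0.05. The call against LysoMac was lost when either LysoMac array 1 or 2 or any 1 of the C5aR- LysoDC arrays was left out, with differences of 1.07 to 1.27 and limma adjusted p-values of 0.0519 to 0.112, and in a fit of the compared populations alone (limma, adjusted p = 0.0739). Without LysoMac array 3 the difference was 1.41 (limma, adjusted p = 0.0107).

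The 1 of 6 members higher in C5aR- LysoDC than in LysoMac stands beside 1.13% of all 33793 clusters that were higher there, and 2.18% of the 16988 clusters with at least 1 population mean above every array median. No member was lower there, against 0.405% of all clusters. These 381 higher and 137 lower clusters became 436 and 274 after quantile normalization, 444 and 291 after cyclic loess, 189 and 48 in the fit of the compared populations alone and 2991 and 3691 with a weight per array. Leaving out LysoMac array 1 gave 126 and 35, leaving out C5aR- LysoDC array 2 gave 108 and 22, and leaving out LysoMac array 3 gave 822 and 434. At an unadjusted p under 0.05, 3 members differed (Traf1, Marcksl1 and Samsn1), against 13.2% of clusters, and 2 (Traf1 and Marcksl1) had all C5aR- LysoDC arrays above all LysoMac arrays, against 7.28%. Of the 6 differences 3 were above 0 and 3 below it, with a median of 0.15, where all clusters had a median of -0.06. In the other comparisons 0 of 6 members passed in limma. The share of clusters called higher was 0.0503% for C5aR+ LysoDC against LysoMac, where 0 members and 6.19% of clusters had an unadjusted p under 0.05. It was 0.0947% for C5aR- against C5aR+ LysoDC, where 1 member (Traf1) and 5.46% of clusters had an unadjusted p under 0.05, and where that member alone and 5.13% of clusters lay higher without overlap. There 0.00592% of clusters were lower. The median of the 6 differences was 0.00 for C5aR+ LysoDC against LysoMac and 0.22 for C5aR- against C5aR+ LysoDC, beside -0.04 and -0.02 over all clusters. The F test called 0 members and 0.755% of clusters.

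**Figure D1:**
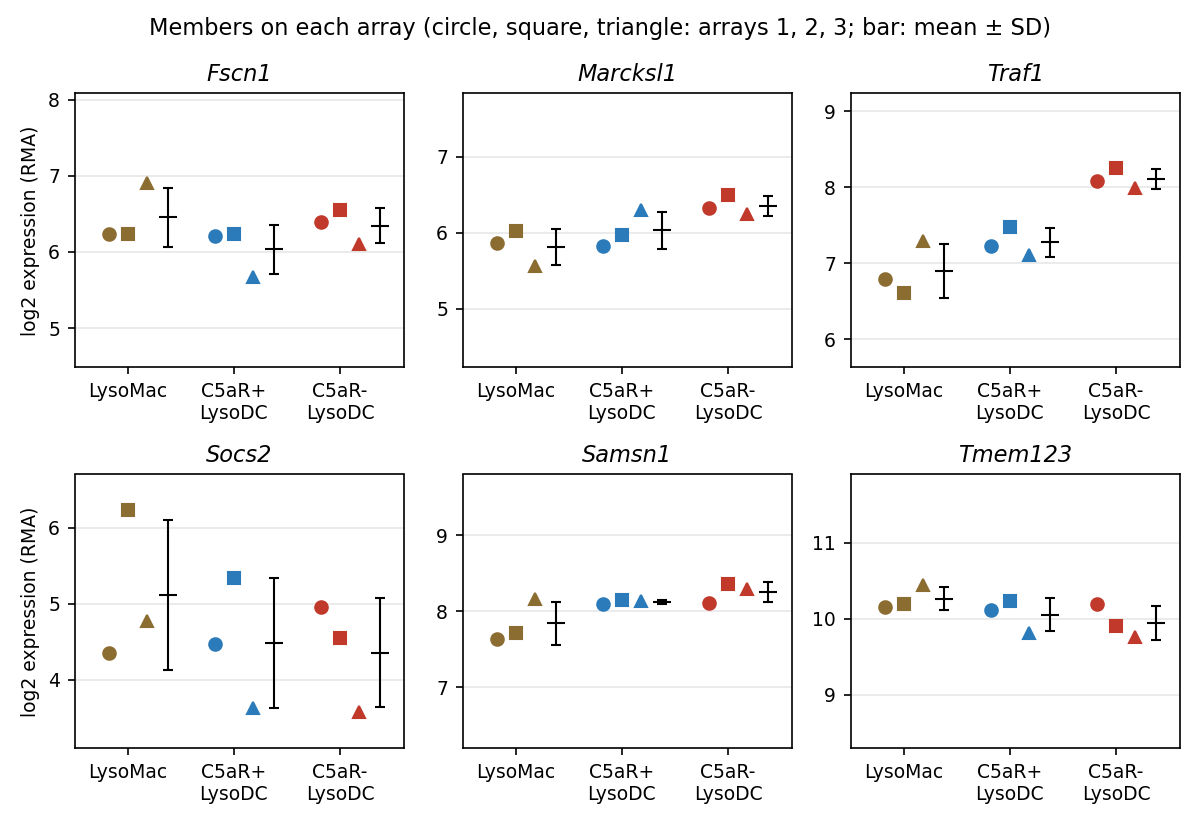
Log2 expression (vertical axes, each spanning the same range of log2 units) of the 6 members on each array, by population (horizontal axes); circles, squares and triangles are arrays 1, 2 and 3, and black bars give the mean ± SD of 3 arrays. The C5aR- LysoDC arrays of Traf1, at 7.99 to 8.25, sit above all others, whereas the populations overlap for Fscn1, Socs2, Samsn1 and Tmem123.

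B cells express Traf1 as well, and their markers were read beside it. Of 13 measured B cell markers 3 (Cr2, Blk and Pou2af1) were higher in C5aR- LysoDC than in LysoMac, by 1.64, 1.82 and 0.62. The LysoMac mean of Cr2 lay below every array median, so that its difference rests on dim signal. The list had a median of 0.69. The share of all clusters higher in C5aR- LysoDC than in LysoMac was 1.13%. Between C5aR- and C5aR+ LysoDC, where Traf1 differed by 0.84, 0 of the 13 passed in limma and the median was -0.19. An unadjusted p under 0.05 was found there for 4 of the 13 and for 5.46% of all clusters. The summed linear signal of the list was 1177 to 2635 per LysoMac array, 1905 to 3072 per C5aR+ LysoDC array and 1926 to 3094 per C5aR- LysoDC array, and 1 of the 13 markers lay below every array median in LysoMac and 0 in the LysoDC populations. The part of B cell RNA in the level of Traf1 was not tested. Of 12 T cell markers 0 passed in limma in any comparison, with 0 at an unadjusted p under 0.05, and their summed signal was 320 to 353 in C5aR- LysoDC and 399 to 450 in LysoMac. In sorted populations, more cells that express a gene and more RNA per cell cannot be told apart.

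Neither of the actin genes passed the test in any comparison. Fscn1 encodes fascin, which bundles actin filaments in the dendrites of mature dendritic cells. Its level was 6.23, 6.23 and 6.90 on the LysoMac arrays, 6.21, 6.23 and 5.67 on those of C5aR+ LysoDC and 6.39, 6.55 and 6.10 on those of C5aR- LysoDC. The highest of the 9 values came from a LysoMac array, and all 3 populations overlapped. C5aR- LysoDC and LysoMac differed by -0.11 ± 0.24 (SE, n = 3 per population), with a 95% interval from -0.65 to 0.43, a sign that turned without LysoMac array 3 (0.11) or C5aR- LysoDC array 3 (0.01) and with array weights. C5aR+ LysoDC differed from LysoMac by -0.42 ± 0.24, and C5aR- from C5aR+ LysoDC by 0.31 ± 0.24. The limma adjusted p-values of Fscn1 were 0.809 or more. LysoMac arrays 1 and 2 and C5aR+ LysoDC array 2 carried the identical value for this gene, and 50.4% of all clusters in the deposited table had the same value on at least 2 arrays.

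Marcksl1, whose product binds actin and the cell membrane, was 5.86, 6.03 and 5.56 on the LysoMac arrays, 5.82, 5.97 and 6.30 on those of C5aR+ LysoDC and 6.33, 6.50 and 6.24 on those of C5aR- LysoDC. All C5aR- LysoDC arrays lay above all LysoMac arrays, and C5aR+ LysoDC overlapped both. The difference between C5aR- LysoDC and LysoMac was 0.54 ± 0.18, with a 95% interval from 0.14 to 0.94, and did not pass over all clusters (limma, adjusted p = 0.239). With a weight per array, a setting in which 2991 clusters were higher and 3691 lower, it was 0.49 and passed (limma, adjusted p = 0.0236). C5aR+ LysoDC differed from LysoMac by 0.22 ± 0.18 and from C5aR- LysoDC, which were higher, by 0.32 ± 0.18. Marcks, the gene of the founding member of that protein family, differed by 0.36 ± 0.18 between C5aR- LysoDC and LysoMac (limma, adjusted p = 0.436).

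Samsn1 and Socs2 are brakes on signalling. Samsn1 encodes an adaptor with SH3 and SAM domains that restrains B cell activation, and its level was 7.63, 7.71 and 8.16 on the LysoMac arrays, 8.09, 8.14 and 8.13 on those of C5aR+ LysoDC and 8.11, 8.36 and 8.29 on those of C5aR- LysoDC. LysoMac arrays 1 and 2 lay below all LysoDC arrays, and LysoMac array 3 lay among them. C5aR- LysoDC exceeded LysoMac by 0.42 ± 0.16, with a 95% interval from 0.05 to 0.79 (limma, adjusted p = 0.324, and 0.0596 without LysoMac array 3). With a weight per array the difference was 0.59 and passed (limma, adjusted p = 0.00875), and after quantile normalization it was 0.22 and after cyclic loess 0.19. The 3 C5aR+ LysoDC arrays had an SD of 0.029, against 0.285 in LysoMac. C5aR+ LysoDC differed by 0.28 ± 0.16 from LysoMac, and C5aR- from C5aR+ LysoDC by 0.13 ± 0.16.

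Socs2, which inhibits signalling from growth hormone and other cytokine receptors and is a target of STAT5, varied more between arrays of a population than between populations. Its level was 4.36, 6.23 and 4.77 on the LysoMac arrays, 4.47, 5.34 and 3.63 on those of C5aR+ LysoDC and 4.95, 4.55 and 3.57 on those of C5aR- LysoDC. The SDs of the 3 populations were 0.98, 0.86 and 0.71, and their ranges overlapped. The difference of -0.76 ± 0.58 between C5aR- LysoDC and LysoMac had a 95% interval from -2.07 to 0.55, so that these arrays bound Socs2 only loosely. C5aR+ LysoDC differed from LysoMac by -0.64 ± 0.58. Without LysoMac array 2 these differences were -0.21 and -0.08. C5aR- differed from C5aR+ LysoDC by -0.12 ± 0.58, which turned to 0.31 without C5aR+ LysoDC array 2 and 0.27 without C5aR- LysoDC array 3. The second, dimmer cluster of Socs2 ranged from 4.04 to 4.75 over the 9 arrays and differed by -0.07 ± 0.19 between C5aR- LysoDC and LysoMac.

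Tmem123 encodes a mucin-like protein of the cell surface, and it tended the other way from Traf1. The LysoMac arrays had 10.16, 10.19 and 10.44, the C5aR+ LysoDC arrays 10.12, 10.24 and 9.81, and the C5aR- LysoDC arrays 10.19, 9.90 and 9.76. The 3 populations overlapped. The difference between C5aR- LysoDC and LysoMac was -0.31 ± 0.17, with a 95% interval from -0.71 to 0.08 (limma, adjusted p = 0.477), and was -0.54 after cyclic loess. C5aR+ LysoDC differed from LysoMac by -0.21 ± 0.17, and C5aR- from C5aR+ LysoDC by -0.10 ± 0.17.

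The order of the levels thus differed among the members. Traf1, Marcksl1 and Samsn1 had their lowest mean in LysoMac and their highest in C5aR- LysoDC, with C5aR+ LysoDC between them. Socs2 and Tmem123 had the opposite order, and Fscn1 was highest in LysoMac and lowest in C5aR+ LysoDC. The second, dimmer cluster of Socs2 was lowest in C5aR+ LysoDC instead, with means of 4.42 (LysoMac), 4.24 (C5aR+ LysoDC) and 4.35 (C5aR- LysoDC). None of the neighbours in these orders differed past the threshold over all clusters, and the ends of the order did so for Traf1 alone. LysoMac array 3 had the highest LysoMac value for Fscn1, Traf1, Samsn1 and Tmem123 and the lowest for Marcksl1.

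**Figure D2:**
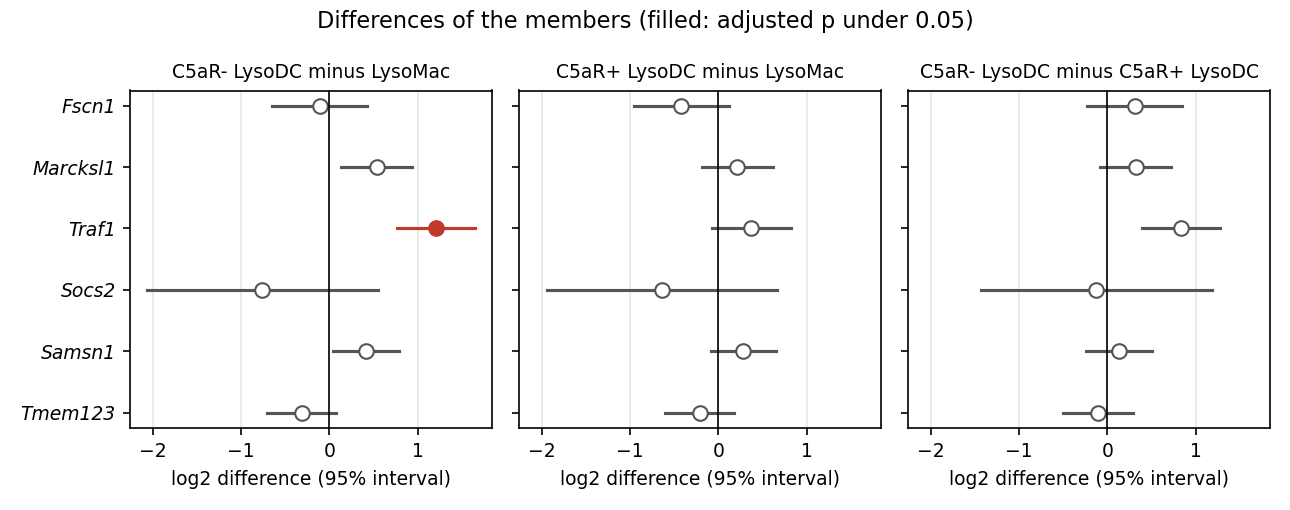
Log2 difference (horizontal axes) of each of the 6 members in each comparison, with its 95% interval as a line; the point is filled where limma's adjusted p over all clusters was under 0.05. Traf1 between C5aR- LysoDC and LysoMac, at 1.21, is the filled point, and the widest intervals are those of Socs2.

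As a description, pairs of members were correlated over the 9 arrays, which share populations and array-wide shifts. Traf1 and Samsn1 had a Pearson r of 0.83, and of 0.77 after each population's mean was subtracted. Traf1 and Fscn1 had an r of 0.25 over the 9 arrays and of 0.89 after that subtraction, so they varied together within populations and not between them. Marcksl1 and Tmem123 had an r of -0.74, and Marcksl1 and Traf1 an r of 0.60 that became -0.57 within populations.

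The same measure named the genes most like each member, the 3 with the highest r over the 9 arrays out of 11629 genes. Genes picked in this way share the member's pattern over these arrays by selection, so their differences are no separate evidence for it. For Traf1 these were Nedd4, a ubiquitin ligase (r = 0.995), Kit, the receptor of stem cell factor (r = 0.986), and Rbbp7, a histone-binding protein (r = 0.982). The means of Nedd4 were 4.85 (LysoMac), 6.15 (C5aR+ LysoDC) and 8.53 (C5aR- LysoDC), and it rose by 3.68 ± 0.41 from LysoMac to C5aR- LysoDC (limma, adjusted p = 0.00442). Kit averaged 6.48, 7.16 and 9.42 in the same order and rose by 2.94 ± 0.41 (limma, adjusted p = 0.0116). For Marcksl1 they were Ptger4, a prostaglandin E2 receptor, Macir and Sort1, the sorting receptor sortilin (r = 0.971, 0.936 and 0.935), of which Sort1 rose by 2.17 ± 0.43 from LysoMac to C5aR- LysoDC (limma, adjusted p = 0.0458). Samsn1 was most like Rprd1b, Sugt1 and Dlgap5 (r = 0.994, 0.986 and 0.982), Fscn1 most like Irak1bp1, Spire1 and Ccdc191 (r = 0.968, 0.941 and 0.922), Socs2 most like Ndufaf6, Kir3dl1 and Cldn23 (r = 0.956, 0.952 and 0.936), and Tmem123 most like Stau2, Slc9a3r2 and Mmp23 (r = 0.951, 0.943 and 0.941). These last 12 genes had limma adjusted p-values of 0.143 or more in all 3 comparisons.

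The list of other genes of mature, migratory dendritic cells held Ccr7 and further genes that differed between C5aR- LysoDC and LysoMac. Of 44 measured, 11 were higher and 1 was lower in C5aR- LysoDC than in LysoMac, 36 differences were above 0, and the median was 0.60. Over all clusters 1.13% were higher and 0.405% lower, with a median of -0.06. Of the 16988 clusters with at least 1 population mean above every array median, 2.18% were higher, with a median of 0.01. This and the other lists were drawn up with earlier results of these data known, so that their counts are a description and no separate test. Ccr7, the receptor that guides maturing cells to the T cell zone, was 4.29, 5.07 and 4.34 on the LysoMac arrays, 6.17, 6.77 and 6.77 on those of C5aR+ LysoDC and 8.62, 8.73 and 7.92 on those of C5aR- LysoDC. The 3 populations did not overlap, with C5aR+ LysoDC between the others. From LysoMac to C5aR- LysoDC Ccr7 rose by 3.86 ± 0.29 (limma, adjusted p = 0.000966). Serpinb6b, a protease inhibitor, rose by 2.92 ± 0.27 (limma, adjusted p = 0.00212), Dusp5, a phosphatase of ERK, by 1.53 ± 0.17 (limma, adjusted p = 0.00464), and Icosl, the ligand of the T cell receptor ICOS, by 2.04 ± 0.29 (limma, adjusted p = 0.0125). The 1 decrease, named after its value was seen, was that of the fatty acid-binding protein gene Fabp5, which dropped by 1.32 on the log2 scale (limma, adjusted p = 0.0144).

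Among other genes of the list, again named after their values were seen, Cd83, a surface protein of mature dendritic cells, rose by 1.84 between LysoMac and C5aR- LysoDC (limma, adjusted p = 0.0184). Cd80 and Cd86, the ligands of CD28, and Cd40, the receptor of CD40 ligand, differed by 0.32, 0.82 and 1.02 and did not pass, nor did Relb, an NF-kappaB subunit of maturing cells, at -0.10. Between C5aR- and C5aR+ LysoDC 1 of the 44, Serpinb6b, was higher, by 2.08 ± 0.27 (limma, adjusted p = 0.0355), and the median was 0.35. Of all clusters 0.0947% were higher there, with a median of -0.02. Ccr7 differed there by 1.85 ± 0.29 (limma, adjusted p = 0.0735). Between C5aR+ LysoDC and LysoMac 0 of 44 passed in limma and 13 had an unadjusted p under 0.05, with a median of 0.23. Of all clusters 0.0503% were called higher and 6.19% had an unadjusted p under 0.05 there, with a median of -0.04. Both comparisons with LysoMac share its 3 arrays. The 12 calls against LysoMac became 4 without LysoMac array 1, 7 without LysoMac array 2 and 4 without C5aR- LysoDC array 2, and were 26 with a weight per array, 6 with 1 weight per population and 5 in a fit of the compared populations alone. The call of Icosl was lost without LysoMac array 1 or C5aR- LysoDC array 2, and that of Fabp5 without either of these or C5aR- LysoDC array 3. That of Cd83 was lost when any 1 of the C5aR- LysoDC arrays was left out and in the fit of the compared populations alone. The call of Serpinb6b between the LysoDC populations was kept with 1 of the 9 arrays left out and lost with each of the other 8.

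Of 40 measured genes of the actin skeleton and cell motility, 4 were higher and 0 lower in C5aR- LysoDC than in LysoMac, with a median of 0.38. Over all clusters 1.13% were higher and 0.405% lower there, with a median of -0.06. Lsp1, an actin-binding protein of leukocytes, formed 3 separate steps: 6.40, 6.39 and 6.37 on the LysoMac arrays, 7.78, 7.81 and 7.58 on those of C5aR+ LysoDC and 9.41, 9.48 and 9.24 on those of C5aR- LysoDC. Lsp1 passed in all 3 comparisons, rising by 2.99 ± 0.13 from LysoMac to C5aR- LysoDC (limma, adjusted p = 7.53e-05), by 1.34 ± 0.13 from LysoMac to C5aR+ LysoDC (limma, adjusted p = 0.0132) and by 1.66 ± 0.13 from C5aR+ to C5aR- LysoDC (limma, adjusted p = 0.00701). The call between C5aR+ LysoDC and LysoMac was lost with quantile normalization, with cyclic loess, in a fit of these populations alone and without LysoMac array 1 or C5aR+ LysoDC array 1 or 2. The call between the LysoDC populations was lost without C5aR+ LysoDC array 1. Fmnl1, a formin that extends actin filaments, rose by 1.70 ± 0.16 from LysoMac to C5aR- LysoDC (limma, adjusted p = 0.00265), Ezr, which ties actin to the membrane, by 1.52 ± 0.21 (limma, adjusted p = 0.0111), and Adam8, a membrane protease, by 2.20 ± 0.44 (limma, adjusted p = 0.0464). The call of Adam8 was kept in 8 of 12 other settings and with 3 of the 9 arrays left out in turn, and that of Ezr was lost without LysoMac array 1 or C5aR- LysoDC array 2. The count of 4 was 2 without either of these arrays, 10 without LysoMac array 3 and 19 with a weight per array.

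Around Traf1, 4 of 20 measured genes of TRAF and NF-kappaB signalling were higher and 0 lower in C5aR- LysoDC than in LysoMac, with a median of 0.48. All clusters together had 1.13% higher, 0.405% lower and a median of -0.06. Traf4, another gene of the TRAF family, was 3.65, 3.43 and 4.23 on the LysoMac arrays, 4.04, 4.08 and 4.39 on those of C5aR+ LysoDC and 5.92, 6.08 and 5.48 on those of C5aR- LysoDC. LysoMac array 2 lay below its array median of 3.65 for Traf4, and also for Serpinb6b, so that the LysoMac levels of both genes are dim on that array. As for Traf1, the C5aR- LysoDC arrays stood above all others, and Traf4 rose by 2.06 ± 0.24 from LysoMac (limma, adjusted p = 0.00561). Map3k14, the kinase that starts the non-canonical NF-kappaB pathway, was 5.12, 5.60 and 5.32 on the LysoMac arrays, 5.33, 5.78 and 5.60 on those of C5aR+ LysoDC and 6.69, 7.64 and 7.38 on those of C5aR- LysoDC. It rose by 1.89 ± 0.25 from LysoMac to C5aR- LysoDC (limma, adjusted p = 0.00964), again with C5aR- LysoDC apart from the overlapping others. Rel, an NF-kappaB subunit, and Nfkbib, an inhibitor of NF-kappaB, rose by 1.14 ± 0.23 and 0.83 ± 0.17 (limma, adjusted p = 0.0469 and 0.0481). The call of Rel was kept in 7 of 12 other settings and with 2 of the 9 arrays left out in turn. That of Nfkbib was kept in 6 settings and with 0 arrays left out, and that of Map3k14 was lost without LysoMac array 1. The count of 4 was 1 without LysoMac array 1 and 2 without LysoMac array 2, C5aR+ LysoDC array 1 or 2 or any C5aR- LysoDC array, 2 in the fits with an intensity trend, robust variances, 1 weight per population or the compared populations alone, and 8 with a weight per array. Between C5aR- and C5aR+ LysoDC 0 of 20 passed in limma (5 at an unadjusted p under 0.05). Of all clusters 5.46% had an unadjusted p under 0.05 there, and 0.0947% were called higher. Traf4 differed there by 1.66 ± 0.24 (limma, adjusted p = 0.0550) and Map3k14 by 1.67 ± 0.25 (limma, adjusted p = 0.0593).

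**Figure D3:**
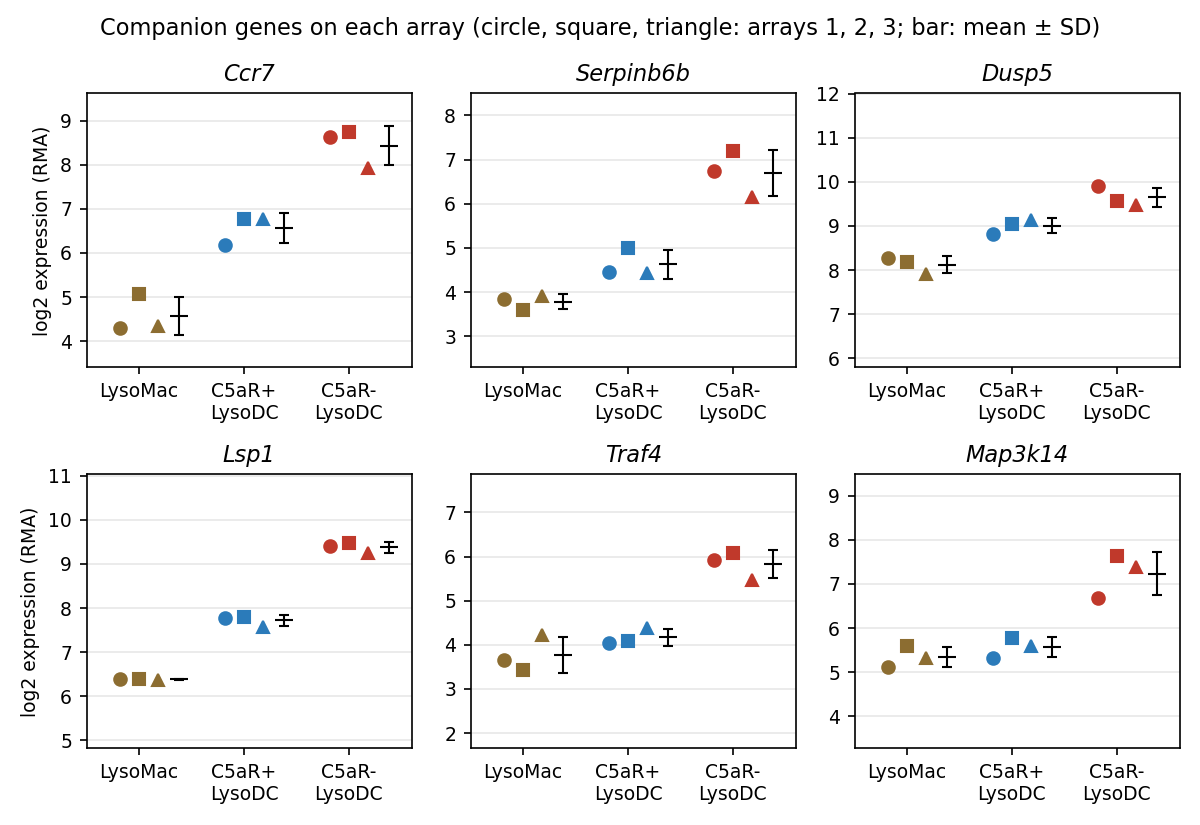
Log2 expression (vertical axes, each spanning the same range of log2 units) of 6 companion genes on each array, by population (horizontal axes); circles, squares and triangles are arrays 1, 2 and 3, and black bars give the mean ± SD of 3 arrays. Ccr7, Dusp5, Serpinb6b and Lsp1 form 3 separate steps, while for Traf4 and Map3k14 LysoMac and C5aR+ LysoDC overlap and C5aR- LysoDC stand apart.

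The families of the remaining members held few calls. Of all clusters 1.13% were higher and 0.405% lower in C5aR- LysoDC than in LysoMac. Of 19 measured genes of SOCS and JAK-STAT signalling, 1 was higher in C5aR- LysoDC than in LysoMac: Stat5a, a cytokine-activated transcription factor, rose by 1.65 ± 0.33 (limma, adjusted p = 0.0459), a call kept in 7 of 12 other settings and with 1 of the 9 arrays left out in turn. Socs1, Socs3 and Cish, inhibitors related to Socs2, differed by 0.07, -0.72 and 0.17 and did not pass. Of 17 genes of voltage-gated calcium channels, the family of Cacnb3, 1 was higher, Cacna1g, by 1.15 ± 0.21 (limma, adjusted p = 0.0383). Its LysoMac mean lay below every array median, so that this difference rests on dim signal. The call was kept with 1 of the 9 arrays left out and lost with each of the other 8. Of 11 enzymes and transporters of immune amino acid metabolism, the field of Il4i1, 0 passed in limma in any comparison (3, 1 and 1 at an unadjusted p under 0.05 in C5aR- LysoDC against LysoMac, C5aR+ LysoDC against LysoMac and C5aR- against C5aR+ LysoDC). The shares of all clusters at that unadjusted threshold were 13.2%, 6.19% and 5.46%. The most highly expressed genes of this list, Slc3a2 and Ahr, differed by 0.08 and 0.41 between C5aR- LysoDC and LysoMac. Of 5 adaptors related to Samsn1, 0 passed in limma in any comparison (1, 0 and 1 at an unadjusted p under 0.05), Hcls1 and Skap2 differing by 0.34 and 0.29 between C5aR- LysoDC and LysoMac.

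**Figure D4:**
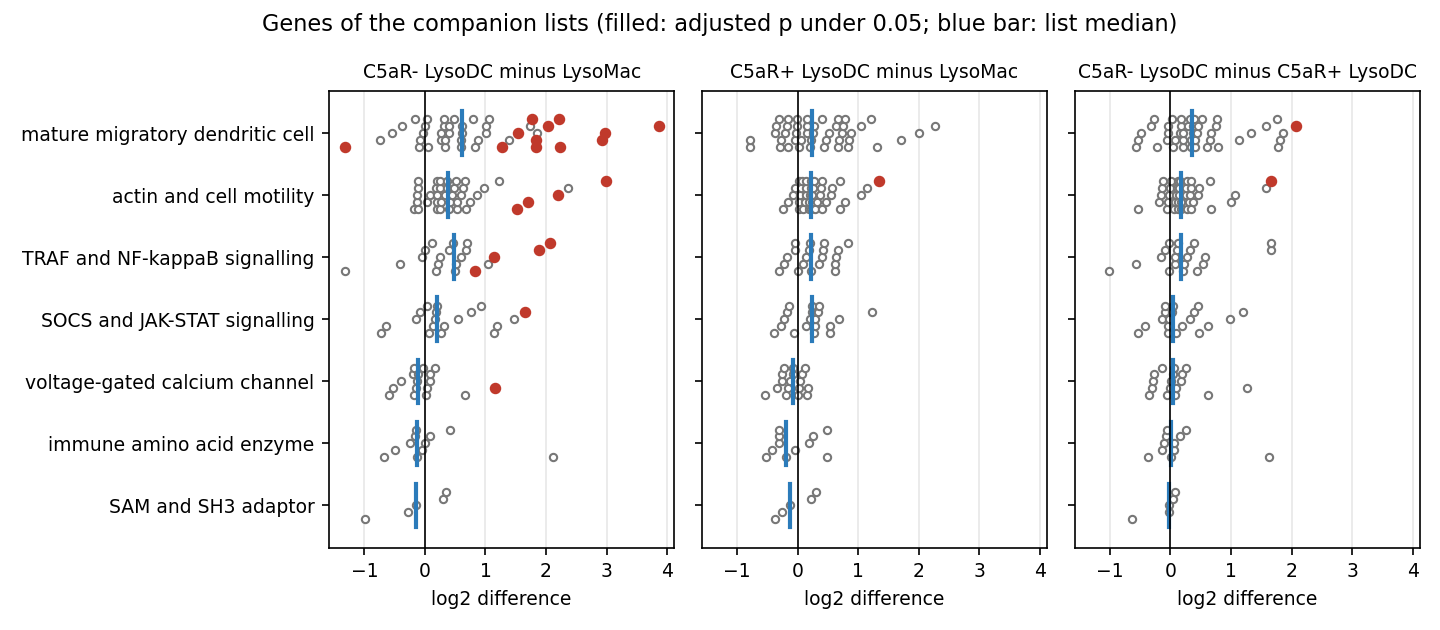
Log2 difference (horizontal axes) of every measured gene of the 7 companion lists (rows) in each comparison; filled points had limma's adjusted p under 0.05 over all clusters, and blue bars are list medians. Filled points gather in the comparison of C5aR- LysoDC with LysoMac, with 11 to the right of 0 in the mature migratory dendritic cell row and 1 to the left.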

How the data were processed

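Per the submitters' processing notes, the authors made the deposited log2 expression values with RMA in Affymetrix Power Tools; no source used here states versions, settings or a genome build. No filter was set on the 33793 clusters, of which 23521 carried 1 symbol, 1814 several and 8458 none in the annotation. limma 3.58.1 in R 4.3.3 fitted the 9 arrays together, with a mean for each population. Tests were two-sided with Benjamini-Hochberg adjustment over all clusters and a threshold of 0.05, and intervals are 95% intervals of the moderated fit. Precision is limited by the number of arrays. The fit was tested on simulated data with independent noise and the same variance in all populations. That setting lacks the uneven variances and array-wide shifts of these arrays.

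The members, the 17 gene lists (278 of 296 genes matched), the tests and the alternatives were chosen with earlier results of these data known. Named genes are all members and up to 4 passing genes per list and comparison with the smallest adjusted p, otherwise the 2 most highly expressed. Per member the 3 genes with the highest r are also named, without predicted, small RNA, olfactory receptor and antigen receptor genes. Marcks, Socs1, Socs3 and Cish were named outside this rule, as relatives of members. So were the genes said above to be named after their values were seen. The alternatives were a replicate block, other scalings, filters, variance models, weights and subsets of arrays. Same-numbered arrays of C5aR+ LysoDC and LysoMac deviated together (r = 0.16, 0.26 and 0.41), for which the labels give no reason; in each other comparison 1 such r was below 0.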

Additional observations from a re-analysis of the deposited data

How the results depend on the processing

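Of the 6 members, Traf1 passed between C5aR- LysoDC and LysoMac in 11 of 12 settings other than leaving out an array, with log2 differences of 1.00 to 1.29; in a fit of these populations alone its difference of 1.21 had limma's adjusted p = 0.0739. Without 1 array it ranged from 1.07 to 1.41 and the count of members from 0 to 1. The count was 0 in the fit of the 2 populations alone and 3 with array weights (Marcksl1, Samsn1 and Traf1), where 2991 of all clusters were higher and 3691 lower against 381 and 137. The replicate block (the replicate number as a factor) kept the Traf1 call (adjusted p = 0.0369) and changed no other call of a member, nor the call of Lsp1 between C5aR+ LysoDC and LysoMac. Counts of members in the other pairwise comparisons were 0 in all settings. The F test called 1 member, Traf1, after quantile normalization, cyclic loess, leaving out dim clusters, testing 1-symbol clusters only or with 1 weight per population, and 2 with array weights; without 1 array it called 0 to 1. Fscn1 turned to 0.052 between C5aR- LysoDC and LysoMac with array weights, and ranged from -0.22 to 0.11 without 1 array (0.01 without C5aR- LysoDC array 3). Socs2 turned to 0.17 between C5aR+ LysoDC and LysoMac with array weights, and ranged from -0.55 to 0.31 between the LysoDC populations without 1 array (0.27 without C5aR- LysoDC array 3). The cause of these changes was not tested.

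Over the 7 companion lists, 22 genes passed between C5aR- LysoDC and LysoMac, against 70 with array weights and 11 with 1 weight per population. The count was 10 in the fit of the 2 populations alone and 7 to 29 without 1 array. All clusters together gave 381 higher and 137 lower there, against 2991 and 3691 with array weights. They gave 193 and 61 with 1 weight per population and 189 and 48 in the fit of the 2 populations alone. Between C5aR+ LysoDC and LysoMac 1 companion gene passed, against 0 after quantile normalization, cyclic loess or in the fit of these populations alone. With array weights 15 passed, and without 1 array 0 to 1. All clusters gave 17 higher and 0 lower there, and 653 and 713 with array weights. Between the LysoDC populations 2 passed, against 4 with the replicate block, 5 without dim clusters or with 1-symbol clusters only, 7 with array weights or with 1 weight per population, 1 in that fit and 0 to 4 without 1 array. Among the companion genes that passed, Cacna1g had a LysoMac mean below every array median. Traf4 and Serpinb6b lay below the array median on LysoMac array 2.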
